A study of Homo sapiens with 6 samples.

Results

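The genes of the insulin-like growth factor (IGF) axis were followed in definitive endoderm (DE) made from H1 cells, an established human embryonic stem cell line. They were chosen by name as the ligand IGF2, the receptors IGF1R, IGF2R and INSR, and the binding proteins IGFBP1 to IGFBP6, giving 10 genes among the 40396 gene IDs of the expression table. All cells were differentiated for 3 days with 50 ng/ml activin A, with 2.5 µM CHIR99021 present for the first 24 h. The SAR group received 0.5 µM saracatinib (SAR), a kinase inhibitor known for its action on Src family kinases, throughout the 3 days, and the control group received the same volume of the solvent DMSO. Each group had 3 libraries of poly(A)-selected RNA from this single cell line. The labels do not say whether the libraries of a group came from separate differentiations, so p-values measure the spread between these libraries, which may be technical.

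IGF1 and IGF2 are secreted peptides that activate the receptor tyrosine kinase IGF1R and, for IGF2, also an isoform of the insulin receptor INSR. IGF2R has no kinase activity and removes IGF2 from the cell surface for degradation in lysosomes. The IGFBPs bind the ligands outside the cell with high affinity, carry them, and hold them away from or release them to the receptors, and proteases such as PAPP-A free the ligands by cutting IGFBPs. Human pluripotent stem cells and their early derivatives depend on insulin or IGF signalling through the PI3K and AKT kinases for survival, and low activity of this pathway is known to favour endoderm formation in activin A cultures.

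Levels are given in FPKM, the fragments of a gene scaled by its exon length and by the size of the library, a unit that can be compared between genes. Library totals recovered from the FPKM values were 18877964 to 24419937 reads in control and 16681280 to 18389543 reads in SAR. Control replicate 1 stood apart in that it had 33169 genes above 0, against 29506 to 30109 in the other libraries. The endoderm label was checked against 10 DE markers, all of which were detected and tested. Of these, 4 were higher with SAR, including SOX17 (31.6 ± 1.84 to 67.5 ± 18.3 FPKM, mean ± SD, n = 3 per group) and FOXA2 (23.6 ± 1.38 to 64 ± 3.66 FPKM), and 6 were lower, and the summed DE marker level was 3.96e+03 to 5.06e+03 FPKM in control and 2.07e+03 to 2.13e+03 FPKM in SAR. CER1 (4.1e+03 ± 534 to 1.68e+03 ± 35.4 FPKM) made up most of this sum, and the other 9 DE markers summed to 418 to 457 FPKM in control and 383 to 475 FPKM in SAR. Among markers of other cell types, the pluripotent markers summed to 451 to 567 FPKM in control and 584 to 622 in SAR, the mesoderm markers to 62.9 to 65.6 and 39 to 51.3, the neural ectoderm markers to 212 to 225 and 213 to 223, and the mesenchyme markers to 41.6 to 44.5 and 39 to 49.8. The hepatic and extraembryonic markers summed to 37.5 to 42.6 FPKM in control and 39.1 to 66.4 in SAR, and the trophoblast markers to 2.48 to 3.8 and 4.97 to 6.47. By the same test as below, 2 of 6 pluripotent, 2 of 5 mesoderm, 1 of 3 neural ectoderm and 1 of 3 hepatic markers tested were higher with SAR. Among them were the pluripotent marker SOX2 (22.1 ± 6.42 to 39.8 ± 3.18 FPKM) and the mesoderm marker TBXT (3.51 ± 0.245 to 11.7 ± 2.15 FPKM). Of 6 trophoblast markers only GATA3 and HLA-G were tested, and both were higher. The neural ectoderm marker was OLIG3 (0 to 0.146 FPKM in control, 2.32 to 4.85 in SAR), tested only because of its SAR values. Lower were 1 pluripotent marker (NANOG, 14.7 ± 1.71 to 5.89 ± 0.604 FPKM) and 2 mesoderm markers (MIXL1 and KDR), and neither direction was found among 3 mesenchyme markers. Over all tested genes, 23.7% were higher and 9.55% lower. AFP, TTR, ALB, CGA, CGB3, TFAP2A and KRT7 were too low to be tested, as were further mesoderm, neural ectoderm and mesenchyme markers. These marker levels were read beside the IGF genes, and their part in the results below was not tested. In bulk RNA, a change in the share of cells that express a gene and a change in its RNA per cell cannot be told apart.

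Within the IGFBP family, the share of IGFBP5 was higher and that of IGFBP6 lower with SAR, though neither could pass a threshold of 0.05 in this design. The shares of IGFBP2 and IGFBP4, the most abundant IGFBPs, overlapped between the groups. IGF1R was lower and INSR higher, but the INSR call was lost when the libraries were rescaled, as given below. The ligand IGF2 was close to 0 in all 6 libraries. IGFBP5 rose about 10.4-fold, from 1.01 ± 0.0372 to 10.5 ± 2.62 FPKM. IGFBP2, IGFBP4 and INSR rose by less, and IGF1R and IGFBP6 fell. Genes whose FPKM averaged 0.5 or more across all libraries were tested with limma on log2(FPKM + 0.1), with p-values adjusted by the Benjamini-Hochberg method over 16371 genes, and 7 of the 10 IGF genes passed this filter. At an adjusted p under 0.05, 6 of the 7 differed, 4 higher and 2 lower with SAR. The background was high, since 33.3% of all tested genes differed, 23.7% higher and 9.55% lower. With the additional requirement of an absolute log2 fold change above 1, the threshold used in the study, only IGFBP5 was upregulated and none of the 7 was downregulated, where 3.41% of all tested genes were upregulated and 1.58% downregulated. The SAR and control libraries did not overlap in any of the 7 tested members, 4 above and 3 below. Of all tested genes, 50.7% did not overlap, 35.5% above and 15.2% below.

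The FPKM of the libraries were not centred on each other. The median of the log2 fold changes was 0.12 over all tested genes and 0.30 over the 7 IGF genes. After the libraries were rescaled by median ratios the medians were 0.00 and 0.18, and over all genes the split of 3885 higher and 1563 lower became 2259 higher and 2538 lower. Fold changes of the members after rescaling are therefore given where they alter a call.

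**Figure D1:**
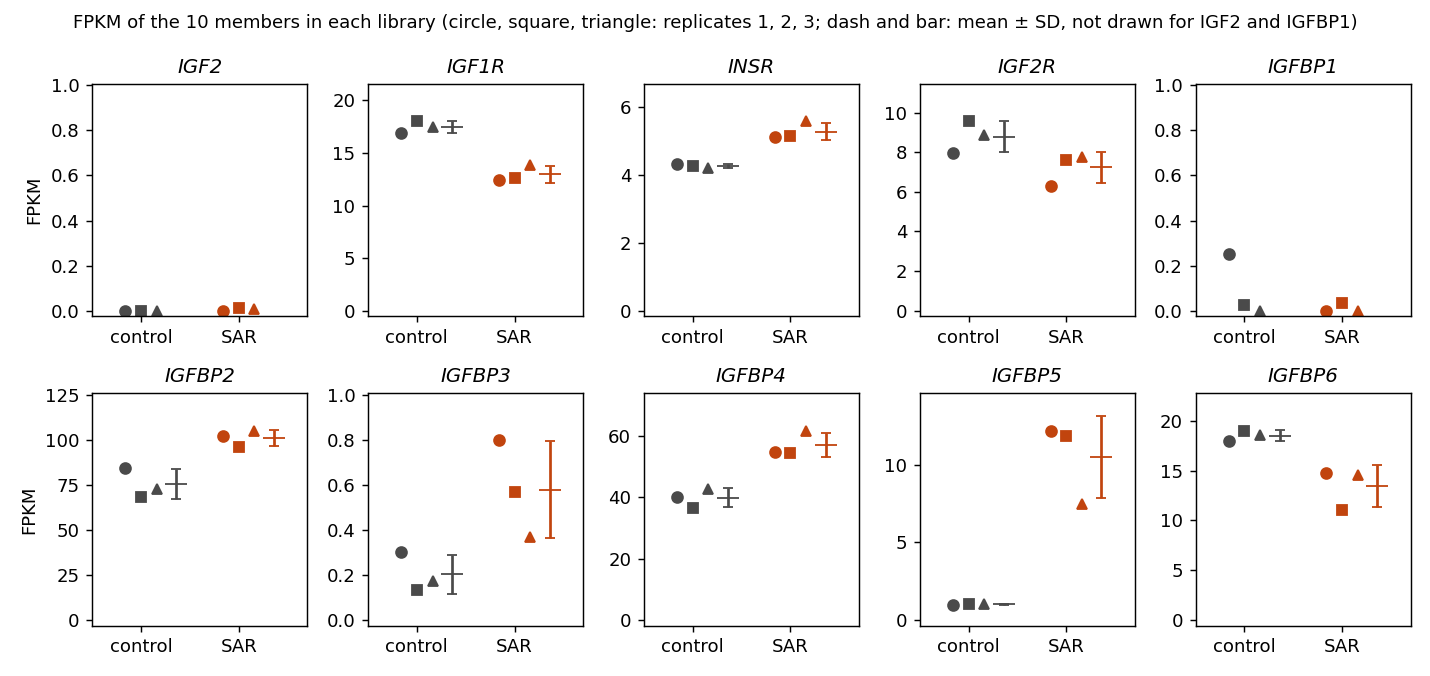
FPKM (vertical axis, linear and starting at 0) of the 10 IGF genes in the 3 control and 3 SAR libraries, with 1 panel per gene and a separate scale for each gene; symbols stand for replicates 1, 2 and 3, and dashes with bars for mean ± SD, not drawn for IGF2 and IGFBP1. IGFBP5 sits near 1 FPKM in control and between 7.49 and 12.2 FPKM in SAR, whereas IGF2 lies at or near 0 in all 6 libraries.

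IGF2 (ENSG00000167244; chr11:2129112-2149603, minus strand, GENCODE 29 on GRCh38, as for all gene positions here) encodes the fetal growth factor of the family. Its FPKM was 0 in each of the 3 control libraries and 0, 0.00943 and 0.00869 in the SAR libraries, which corresponds to 1 read in each of SAR replicates 2 and 3. A count of 0 allows up to 3 reads, or 0.0196 to 0.0287 FPKM depending on the library, so all 6 values lay below that limit and no fold change is given. This value cannot be read as absence of IGF2 transcripts. In GENCODE 29, 73.7% of its exon bases are shared on the same strand with a second entry of the same name (ENSG00000284779) and 20.9% with the readthrough gene INS-IGF2. The IGF2 length recovered from the FPKM was 6259 bases, against 6979 in GENCODE 29. The counting thus used another gene model, whose overlaps are not known. Among the members, the recovered length equalled that of GENCODE 29 only for IGF1R and IGFBP6, and IGF2R differed most (22613 against 17843 bases). Positions and overlaps given for the members are those of GENCODE 29 and may differ from the model used in counting. Reads shared by overlapping genes may be left unassigned by a counter, those overlapping entries were not analysed here, and the share of reads lost in this way was not tested. A further 4.77% of the exon bases lie opposite IGF2-AS.

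The second ligand gene, IGF1 (ENSG00000017427), is not a member of the chosen set and was looked up after the values of the others had been seen. It was at 0.00505 to 0.0443 FPKM, or 1 to 7 reads per library. Thus neither ligand gene showed more than a few reads in any library.

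IGF1R (ENSG00000140443; chr15:98648539-98964530, plus strand) encodes the main signalling receptor for both IGFs. It measured 16.9, 18 and 17.5 FPKM in control replicates 1 to 3 and 12.4, 12.6 and 13.9 FPKM in the SAR replicates, on 2894 to 6142 reads per library. Every SAR library lay below every control library. The group means were 17.5 ± 0.569 and 13 ± 0.773 FPKM, and IGF1R thus fell, with a log2 fold change of -0.43 (SE 0.0624, limma adjusted p = 0.00385). The call held in all 16 alternative analyses, with log2 fold changes from -0.55 to -0.40.

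INSR (ENSG00000171105; chr19:7112255-7294034, minus strand), the insulin receptor, which binds IGF2 through its shorter isoform and can pair with IGF1R in hybrid receptors, moved the other way. Its level was 4.32, 4.26 and 4.2 FPKM in control and 5.12, 5.14 and 5.58 FPKM in SAR. The control libraries were nearly identical, and all 3 SAR libraries were higher. INSR rose from 4.26 ± 0.0595 to 5.28 ± 0.261 FPKM, which is 0.30 on the log2 scale (SE 0.0642, limma adjusted p = 0.0135). The call was lost after median-ratio rescaling, where the log2 fold change was 0.18 (limma adjusted p = 0.0734), after quantile normalization (0.19, adjusted p = 0.0569), and without control replicate 3 (0.29, adjusted p = 0.0586). A gene-level value does not separate the INSR isoforms.

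The ratio of IGF1R to INSR within a library does not depend on the scaling between libraries, and was computed after their values had been seen. IGF1R stood at 3.91, 4.23 and 4.16 times the INSR level in control and at 2.43, 2.45 and 2.48 times in SAR. The groups did not overlap, and the exact permutation test gave p = 0.1, the smallest value that 3 against 3 libraries allow. This outcome was fixed in advance, since every SAR library was already lower for IGF1R and higher for INSR than every control library. The ratio is therefore a description of those shifts and adds no support to them.

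IGF2R (ENSG00000197081; chr6:159969099-160113507, plus strand), the scavenger receptor for IGF2 that also sorts mannose 6-phosphate-tagged enzymes to lysosomes, measured 7.96, 9.55 and 8.85 FPKM in control and 6.31, 7.6 and 7.78 FPKM in SAR. The lowest control library lay only slightly above the highest SAR library. The means were 8.79 ± 0.795 and 7.23 ± 0.804 FPKM, with a log2 fold change of -0.28 (SE 0.105) that did not pass the test (limma adjusted p = 0.0785). It passed after median-ratio rescaling (-0.40, limma adjusted p = 0.0343), after quantile normalization (-0.36, adjusted p = 0.0401), with the replicate number as a block (adjusted p = 0.0344), and on recovered reads (adjusted p = 0.031). IGF1R stood at 2.12, 1.89 and 1.97 times the IGF2R level in control and at 1.97, 1.66 and 1.78 times in SAR, ranges that overlapped (exact permutation p = 0.2).

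**Figure D2:**
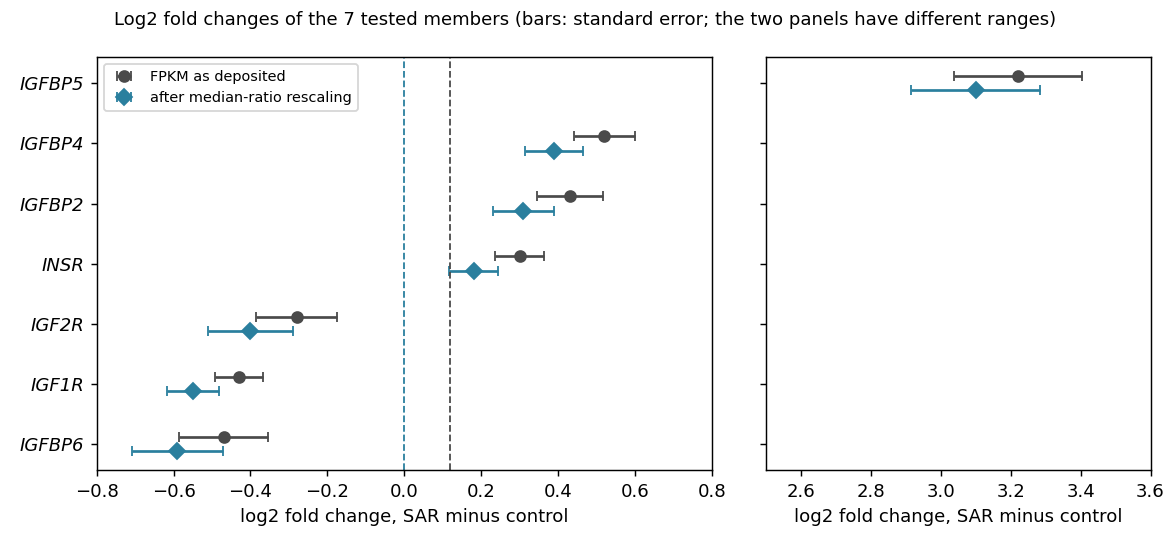
Log2 fold change of SAR over control for the 7 tested IGF genes on the log2(FPKM + 0.1) scale (horizontal axis; the panels have different ranges), with bars for the standard error, beside the value after median-ratio rescaling of the libraries. IGFBP5 stands at 3.22, the other 6 genes lie between -0.47 and 0.52, and rescaling shifts each of them down by about 0.12.

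IGFBP5 (ENSG00000115461; chr2:216672105-216695525, minus strand) encodes a binding protein that is retained in the extracellular matrix and is cut by PAPP-A and HTRA1. It measured 0.974, 1.01 and 1.05 FPKM in control and 12.2, 11.9 and 7.49 FPKM in SAR, on 128 to 160 reads and 891 to 1311 reads respectively. SAR replicate 3 was the lowest of the SAR libraries and still lay several-fold above all control libraries. The log2 fold change was 3.22 (SE 0.183, limma adjusted p = 0.0002), and it was 3.10 after rescaling. Across the 16 alternatives it ranged from 2.49 with a pseudocount of 1 to 3.45 without SAR replicate 3, and the call held in each. Among the 16371 tested genes ranked from the highest mean FPKM, IGFBP5 moved from place 13093 in control to place 4148 in SAR. An antisense gene, AC007563.2, lies opposite 4.63% of its exon bases, and whether counting used the strand is not given in the sources used here.

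IGFBP5, which had the largest rise among the tested members, and IGF1R, whose fall held in all 16 alternatives, are shown by the 250 bases before their RefSeq start, since both windows lie outside the GENCODE 29 gene. The sequences are from RefSeq on GRCh38.p14, read 5′ to 3′ on the strand of the gene, and capitals mark CATTCC, the core letters bound by TEAD factors, or TGTTTAC, the core letters bound by forkhead factors, on either strand, where they read GGAATG on the other strand for the TEAD core and GTAAACA for the forkhead core. The TATA box core TATAAA and the letters CCGCCC, bound by SP factors, were searched as well. The IGFBP5 window lies at chr2:216695550-216695799 on the minus strand and the IGF1R window at chr15:98648289-98648538 on the plus strand.
IGFBP5: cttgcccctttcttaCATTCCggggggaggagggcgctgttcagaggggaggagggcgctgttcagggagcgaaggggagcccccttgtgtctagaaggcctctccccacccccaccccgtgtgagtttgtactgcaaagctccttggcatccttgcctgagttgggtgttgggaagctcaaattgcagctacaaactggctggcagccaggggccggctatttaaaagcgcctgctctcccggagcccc
IGF1R: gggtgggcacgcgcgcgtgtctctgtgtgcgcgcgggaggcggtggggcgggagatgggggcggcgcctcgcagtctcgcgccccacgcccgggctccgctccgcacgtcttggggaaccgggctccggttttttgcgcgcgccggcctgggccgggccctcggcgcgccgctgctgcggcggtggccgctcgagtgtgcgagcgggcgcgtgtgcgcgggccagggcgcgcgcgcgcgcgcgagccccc
The GC content was 61.2% in the IGFBP5 window and 81.2% in the IGF1R window. The IGFBP5 window held CATTCC once, 235 bases before the start, and none of the other motifs searched, and the IGF1R window held 2 matches of CCGCCC and none of the others. RefSeq windows were matched for 8 of the 10 members, and IGF2 and IGFBP1 had no entry. CATTCC occurred in windows of 2 of these 8 members (IGFBP5 and IGFBP6), TGTTTAC in 1 (IGFBP6), TATAAA in 1 (IGFBP4) and CCGCCC in 7. The RefSeq start of IGFBP6 lies downstream of the GENCODE 29 start, so that 231 bases of its window fall inside the gene as positioned here, and windows of IGFBP2 and IGFBP3 also lay inside the gene. Over 35116 human promoter windows of the same length, CATTCC occurred in 11.9%, TGTTTAC in 2.98%, TATAAA in 10.7% and CCGCCC in 42.6%, both strands included. Such matches are a description of the letters only.

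IGFBP2 (ENSG00000115457; chr2:216632828-216664436, plus strand), a binding protein typical of fetal tissue and early embryonic cells with a preference for IGF2, was the most abundant member in both groups. It measured 84.5, 68.5 and 72.9 FPKM in control and 102, 96 and 105 FPKM in SAR, and all SAR libraries were higher than all control libraries. IGFBP2 rose from 75.3 ± 8.27 to 101 ± 4.67 FPKM, or by 0.43 on the log2 scale (SE 0.0857, limma adjusted p = 0.011). After rescaling the log2 fold change was 0.31 (limma adjusted p = 0.0268), and the call held in all 16 alternatives.

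IGFBP4 (ENSG00000141753; chr17:40443461-40457731, plus strand), an inhibitory binding protein and the classical PAPP-A substrate, was next in abundance. The control libraries measured 40.2, 36.6 and 42.8 FPKM and the SAR libraries 54.9, 54.6 and 61.7 FPKM, again without overlap. IGFBP4 rose from 39.9 ± 3.14 to 57.1 ± 3.98 FPKM, or by 0.52 on the log2 scale (SE 0.0788, limma adjusted p = 0.00443). It was 0.39 after rescaling (limma adjusted p = 0.0102), and the call held in all 16 alternatives.

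IGFBP6 (ENSG00000167779; chr12:53097436-53102345, plus strand), the binding protein with the strongest preference for IGF2 over IGF1, was lower with SAR. It measured 18, 19 and 18.6 FPKM in control and 14.8, 11 and 14.6 FPKM in SAR, on 251 to 625 reads per library. The control libraries lay close together, and SAR replicate 2 was the lowest library. IGFBP6 fell from 18.6 ± 0.488 to 13.5 ± 2.14 FPKM, and its log2 fold change was -0.47 (SE 0.116, limma adjusted p = 0.0219). It did not pass without the filter on low values (adjusted p = 0.053), without control replicate 2 (log2 fold change -0.45, adjusted p = 0.0664) or without control replicate 3 (-0.47, adjusted p = 0.0683).

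IGFBP3 (ENSG00000146674; chr7:45912245-45921874, minus strand), the main IGF carrier of adult serum, was rare and fell below the filter with a mean of 0.391 FPKM. The values were 0.3, 0.134 and 0.174 FPKM in control and 0.8, 0.568 and 0.369 FPKM in SAR, from 30, 15 and 15 reads and 61, 44 and 31 reads. The groups did not overlap, but the highest control library lay close to the lowest SAR library. The means were 0.203 ± 0.0863 and 0.579 ± 0.216 FPKM, a ratio of 2.86. Whether the difference passed depended on the analysis, as limma without the filter gave a log2 fold change of 1.15 (SE 0.357, adjusted p = 0.104), and limma-voom on recovered reads, with at least 10 reads over the libraries required, gave 1.5 (SE 0.374, adjusted p = 0.0141).

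IGFBP1 (ENSG00000146678; chr7:45888357-45893668, plus strand), a hepatic and decidual binding protein repressed by insulin, was at or near 0. It measured 0.25, 0.0249 and 0 FPKM in control and 0, 0.0359 and 0 FPKM in SAR, or 9, 1 and 0 reads and 0, 1 and 0 reads. Only control replicate 1 exceeded the limit of 3 reads, which corresponds to 0.0748 to 0.11 FPKM, so no difference was detectable at this depth. Control replicate 1 was also the library with the most genes above 0, and its part in the IGFBP1 value was not tested.

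In order of control level the members ran from IGFBP2 (75.3 FPKM) and IGFBP4 (39.9) to IGFBP6 (18.6), IGF1R (17.5), IGF2R (8.79), INSR (4.26), IGFBP5 (1.01), IGFBP3 (0.203), IGFBP1 and IGF2. IGFBP6 and IGF1R met at 18 FPKM in their nearest libraries and were not separated beyond their spread. In SAR the order was IGFBP2 (101 FPKM), IGFBP4 (57.1), IGFBP6 (13.5), IGF1R (13), IGFBP5 (10.5), IGF2R (7.23), INSR (5.28) and IGFBP3 (0.579). IGFBP5 thereby passed INSR and IGF2R in mean level, although its lowest library (7.49 FPKM) lay within the range of IGF2R, and its highest (12.2 FPKM) within that of IGFBP6.

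Since FPKM are per length, the 6 IGFBPs can be summed within a library and each expressed as a share of the sum, which removes any scaling between libraries. The summed level was 144.3, 125.3 and 135.5 FPKM in control and 184.9, 174.1 and 189.3 FPKM in SAR, with no overlap (exact permutation p = 0.1, the smallest the design allows). Unlike the shares, the sum itself depends on the scaling between libraries. Its separation followed from the higher IGFBP2 and IGFBP4 of every SAR library and is a description only. IGFBP2 stayed at the head of the family, with 55.7% ± 2.55 in control and 55.3% ± 0.206 in SAR (exact permutation p = 1). IGFBP4 held 29.5% ± 1.89 and 31.2% ± 1.44, with overlapping libraries (exact permutation p = 0.3). The shares that separated the groups were those of IGFBP5 and IGFBP6.

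IGFBP5 made up 0.675%, 0.809% and 0.774% of the sum in control and 6.57%, 6.82% and 3.96% in SAR. IGFBP6 made up 12.5%, 15.2% and 13.7% in control and 8%, 6.32% and 7.72% in SAR. Both shares differed without overlap, IGFBP5 upward by 5.03 percentage points and IGFBP6 downward from a mean of 13.8% to 7.35%. Each reached the smallest exact permutation p of 0.1, or 0.3 after adjustment over the 6 IGFBPs, so neither could pass a threshold of 0.05 in this design. The separation of both shares followed from the FPKM of IGFBP5, IGFBP6 and the sum given above. It adds no support to those shifts. IGFBP4 stood at 2.23, 1.92 and 2.3 times the IGFBP6 level in control and at 3.71, 4.96 and 4.22 times in SAR. That separation followed from the higher IGFBP4 and lower IGFBP6 of every SAR library and is a description only. IGFBP3 (0.148% and 0.318%) and IGFBP1 (0.0644% and 0.00688%) were minor parts of the sum in both groups.

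**Figure D3:**
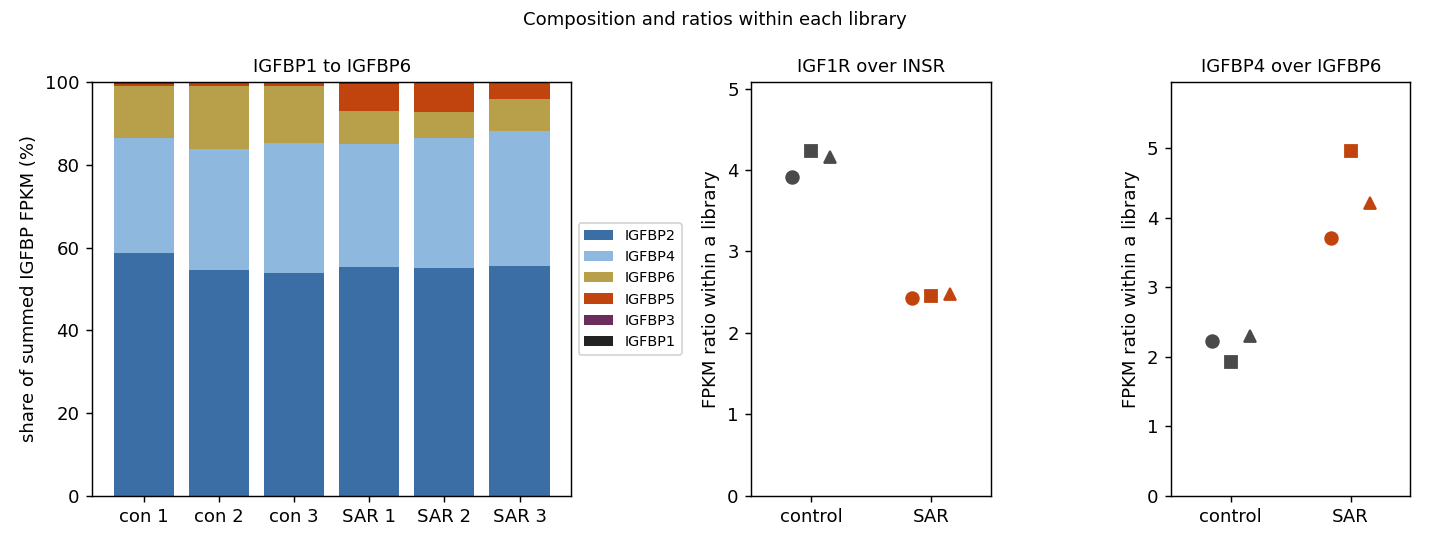
Stacked bars give the share of each IGFBP in the summed IGFBP FPKM (percent) of each library (con, control), and points give the FPKM ratios of IGF1R to INSR and of IGFBP4 to IGFBP6, 1 point per library. The IGFBP5 share lies between 0.675% and 0.809% in control and between 3.96% and 6.82% in SAR, the IGFBP6 share is lower in SAR, and the IGF1R to INSR ratio drops from 3.91 to 4.23 in control to 2.43 to 2.48 in SAR.

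IGFBP2 and IGFBP5 lie 7669 bases apart on chromosome 2 on opposite strands with their 3′ ends toward each other, and were compared as a pair. The log2 ratio of IGFBP5 to IGFBP2 was -6.30, -5.95 and -5.99 in control and -3.06, -3.0 and -3.79 in SAR. The difference was 2.79 and the groups did not overlap (exact permutation p = 0.1, the smallest the design allows, also after adjustment over both pairs). That separation followed from the FPKM of IGFBP5 and IGFBP2 given above, where IGFBP5 rose by more than its neighbour. It is a description only. In linear terms, IGFBP2 stood at 86.8, 67.6 and 69.5 times the IGFBP5 level in control and at 8.41, 8.08 and 14 times in SAR. The other neighbouring pair, IGFBP3 and IGFBP1 on chromosome 7, lies 18577 bases apart. Its log2 ratio, with the pseudocount of 0.1, was 0.19, 0.91 and 1.45 in control and 3.17, 2.30 and 2.23 in SAR (exact permutation p = 0.1), but since IGFBP1 was at or near 0 in most libraries the pseudocount sets much of this ratio.

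The tested genes whose profile over the 6 libraries was most like that of IGFBP5, among 13467 candidates averaging 1 FPKM or more, were CAPSL, IRX2-DT and SOX21. Their centred log2 profiles differed from that of IGFBP5 by a root mean square of 0.239, 0.242 and 0.26. CAPSL rose from 0.143 to 0.24 FPKM in control to 1.76 to 2.38 FPKM in SAR, and SOX21, a SOX family transcription factor, from 0.714 to 0.815 FPKM to 7.16 to 14.9 FPKM. CAPSL, IRX2-DT and SOX21 each lay below 1 FPKM in every control library, and so entered the candidates only through their SAR libraries. These genes were chosen for this likeness over the same libraries, which is therefore a description only.

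The surrounding pathway was described with 6 lists holding 139 genes of the table, of which 106 were tested. At an adjusted p under 0.05, 28 were higher and 12 lower, or 37.7%, against the background of 33.3%. Past the fold change threshold, 4 were upregulated (3.77%) and 3 downregulated (2.83%). On the FPKM as deposited, the share differing was thus close to that among all tested genes. After median-ratio rescaling, 19 pathway genes were higher and 25 lower, where over all tested genes 2259 were higher and 2538 lower. A larger share of the pathway genes than of all tested genes then differed, so the closeness depends on the scaling. For the counts of each list below, 23.7% of all tested genes were higher and 9.55% lower. Individual genes are described for their role around the IGFBPs and receptors.

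Among 22 listed IGFBP proteases and their inhibitors, 14 were tested, 4 were higher and 3 lower, with a median log2 fold change of -0.19. STC1 (stanniocalcin 1), an inhibitor of PAPP-A, measured 171, 208 and 177 FPKM in control and 25.6, 28.4 and 32.3 FPKM in SAR. It fell from above IGFBP2 in control to below IGFBP4 in SAR, with a log2 fold change of -2.69 (SE 0.108, limma adjusted p = 7.96e-05), and the call held in all 15 alternatives run. HTRA1, a secreted serine protease that cuts IGFBPs, measured 1.97, 0.673 and 1.29 FPKM in control and 2.5, 3.07 and 2.85 FPKM in SAR (log2 fold change 1.15, limma adjusted p = 0.0359), and passed in only 8 of 15 alternatives, failing among others without control replicate 3 or any 1 of the SAR libraries. ADAM9 fell, and CTSD, C1S and TIMP1 rose, by less than the fold change threshold, the C1S call being lost after quantile normalization and without control replicate 2 or 3 or SAR replicate 1.

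The genes of PAPP-A and its relative PAPP-A2 were rare. PAPPA measured 0.339, 0.0283 and 0.0549 FPKM in control and 0.0466, 0.0764 and 0.061 FPKM in SAR, on 8 to 86 reads, and was not tested. Control replicate 1 alone held the high value. PAPPA2 likewise stayed below the filter, at 1 to 54 reads. STC2, the second stanniocalcin, measured 3.43 to 4.55 FPKM over the 6 libraries with overlapping groups (limma adjusted p = 0.335).

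Of 18 genes related to IGFBPs or carrying IGFs, 8 were tested, and 4 were higher and none lower. IGFBPL1, a secreted relative of the IGFBPs, measured 84.8, 116 and 108 FPKM in control and 173, 166 and 182 FPKM in SAR. Its mean lay above that of IGFBP2 in both groups, and it rose by a log2 fold change of 0.77 (SE 0.115, limma adjusted p = 0.0042). VTN, the matrix protein vitronectin that binds IGFBP5, rose from 0.503 ± 0.194 to 1.28 ± 0.184 FPKM (log2 fold change 1.24, limma adjusted p = 0.0129) on 16 to 47 reads. TMEM219, a cell surface receptor for IGFBP3, also rose (0.44). CCN2 and CCN1, matricellular proteins with an IGFBP domain, had log2 fold changes of -0.67 (limma adjusted p = 0.0509) and -0.53 (adjusted p = 0.086), and did not pass. CCN2 passed in 6 and CCN1 in 3 of 15 alternatives, median-ratio rescaling among them (adjusted p = 0.0276 and 0.0442). Without control replicate 1 the log2 fold change of CCN1 was -0.30 (limma adjusted p = 0.123).

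**Figure D4:**
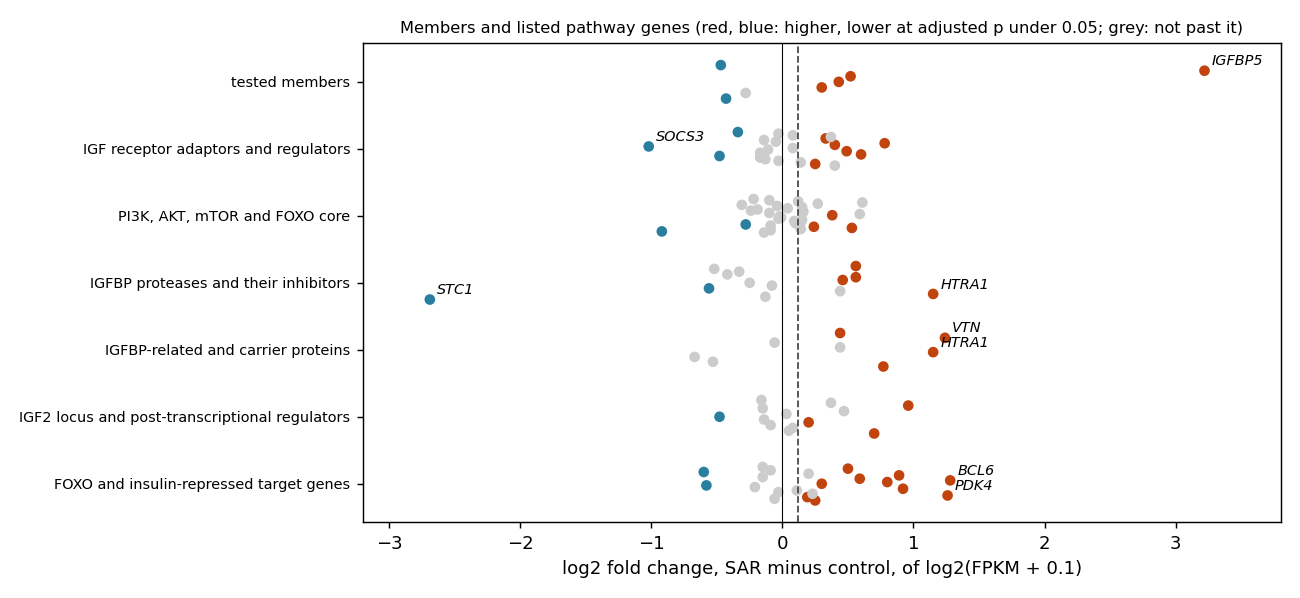
Log2 fold change of SAR over control (horizontal axis, log2(FPKM + 0.1) scale) for the 7 tested IGF genes and the tested genes of the 6 pathway lists (rows), with 1 point per gene and 2 listed genes not drawn; red and blue points are higher and lower at an adjusted p under 0.05, grey points did not pass, the dashed line is the median of all tested genes (0.12), and genes also past the fold change threshold are named. IGFBP5 stands highest at 3.22 and STC1 lowest at -2.69, while most genes of the adaptor and PI3K lists lie near 0.

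Downstream of the receptors, 22 of 24 adaptors and regulators were tested, with 6 higher, 3 lower and a median log2 fold change of 0.02. SOCS3, a feedback inhibitor of cytokine and insulin receptor signalling, fell from 22.9 ± 1.16 to 11.3 ± 1.86 FPKM (log2 fold change -1.02, limma adjusted p = 0.00166), just past the fold change threshold, which it also passed in 11 of 15 alternatives. GRB10, an adaptor that restrains IGF1R and INSR, fell from 14.3 ± 1.05 to 10.2 ± 0.38 FPKM (-0.48, limma adjusted p = 0.00401), as did the phosphatase gene PTPN11, while the phosphatase gene PTPN2 and the docking protein gene DOK1 rose. The receptor substrate IRS2 rose slightly (5.78 ± 0.22 to 6.93 ± 0.61 FPKM, limma adjusted p = 0.0457), a call lost after rescaling (adjusted p = 0.224). Of 33 PI3K, AKT, mTOR and FOXO genes, 31 were tested, 3 were higher and 3 lower. PIK3CB, a catalytic PI3K subunit, fell from 19.5 ± 1.65 to 10.2 ± 0.613 FPKM (-0.92, limma adjusted p = 0.000767).

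Of 26 measured genes induced by FOXO factors or repressed by insulin, 21 were tested, 10 were higher and 2 lower. Over all tested genes, 23.7% were higher and 9.55% lower. The median log2 fold change was 0.20 (0.08 after rescaling) against 0.12 (0.00) for all tested genes. Some of the calls of higher genes, IRS2 among them (limma adjusted p = 0.224), were lost after rescaling, so the count depends on the scaling. The number of higher genes over all tested genes also fell with rescaling, from 3885 to 2259. BCL6, a transcriptional repressor, rose from 0.948 ± 0.212 to 2.42 ± 0.281 FPKM (1.28, limma adjusted p = 0.00304). PDK4, which restrains pyruvate oxidation, rose from 0.306 ± 0.0547 to 0.871 ± 0.135 FPKM (1.26, limma adjusted p = 0.00983) on 26 to 85 reads. Every control library of PDK4 lay below 0.5 FPKM, so the gene passed the filter only through its SAR libraries. SESN3, TRIB2 and BCL2L11 rose by less than the fold change threshold, and GADD45A fell.

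Of 19 measured genes of the IGF2 locus, of imprinted growth control or of IGF2 mRNA regulation, 13 were tested, with 3 higher and 1 lower. CDKN1C, an imprinted cell cycle inhibitor near IGF2 on chromosome 11, rose from 16 ± 0.99 to 26 ± 1.61 FPKM (0.70, limma adjusted p = 0.00122). H19, the imprinted neighbour of IGF2, was at 0.0141 to 0.3 FPKM and was not tested. IGF2BP1, which binds IGF2 mRNA, measured 26.2 to 32.3 FPKM with overlapping groups (limma adjusted p = 0.69). DLK1 rose (0.96) and HMGA2 fell by 0.48 on the log2 scale.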

How the data were processed

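Poly(A)-selected RNA of 6 libraries was sequenced as paired-end reads. The submitters' processing notes name HISAT2, featureCounts from Subread, DESeq2 and the build GRCh38.p13; versions, the annotation release and the strand setting are not given in the sources used here. The deposited table holds FPKM per gene and library as the authors computed them. Gene symbols were matched for 40304 of 40396 gene IDs.

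The IGF genes and the pathway lists were chosen with earlier results of these data known. Named genes are all 10 members and, of each list, genes past both thresholds and up to 4 others with the smallest adjusted p; IGF1, IRS2, PAPPA, PAPPA2, STC2, H19, IGF2BP1 and the level ratios were added after values were seen. Of the listed genes, 2 are included in the counts but not reported here by name. FPKM were tested as log2(FPKM + 0.1) with limma 3.58.1 (lmFit, eBayes with trend, both tails) in R 4.3.3, for genes averaging 0.5 FPKM or more; fold changes on this scale understate the change of low genes. The procedure was tested on simulated data. Shares and ratios were compared by exact permutation over the 6 libraries in SciPy 1.17.1.

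Low FPKM are whole multiples of the value of 1 read, so whole reads (tolerance 0.02) were recovered for 40395 of 40396 genes and used for depth, for the limit of 3 reads (counting error only) and for limma-voom, an alternative added after the data were seen, which called 4504 genes higher and 1825 lower at an adjusted p under 0.05. Other alternatives were a pseudocount of 1 or of 0.01, dropping the filter or raising it to 1 FPKM, median-ratio and quantile scaling, no intensity trend, the replicate number as a block, and leaving out each library.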

Additional observations from a re-analysis of the deposited data

How the results depend on the processing

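The calls of IGFBP2, IGFBP4, IGFBP5 and IGF1R held in all 16 alternatives; those of INSR, IGFBP6 and IGF2R did not, as given beside each. IGF2 and IGFBP1 had too few reads for a fold change at this depth. Members lower at an adjusted p under 0.05 numbered 1 without the filter. With a pseudocount of 1, 0 pathway genes were upregulated, and over all genes 169 were upregulated and 141 downregulated; with a minimum mean of 1 FPKM, 2 pathway genes and 369 genes were upregulated. Median-ratio rescaling gave 25 pathway genes lower, and 2259 genes higher and 2538 lower. Quantile normalization gave 15 pathway genes higher and 21 lower, and over all genes 2429 higher, 340 upregulated and 409 downregulated. The cause of these shifts was not tested.

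Leaving out 1 library gave 3 to 4 members higher and 1 to 2 lower, 15 to 26 pathway genes higher, 8 to 16 lower, 3 to 5 upregulated and 1 to 3 downregulated, and over all genes 2129 to 3751 higher, 833 to 1824 lower, 440 to 722 upregulated and 215 to 338 downregulated, with fewer samples in each fit. The lowest counts of all genes, 2129 higher and 833 lower, came without control replicate 3. The difference in IGFBP2 share, -0.354 percentage points, ranged from -1.31 to 1.09 and turned positive (1.09) without control replicate 1. Pseudocounts do not enter the shares.

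Same-numbered libraries did not deviate together (correlations of 0.073, 0.003 and 0.025), so the numbers were not taken as pairs. With the replicate block, 4 members were higher and 3 lower, IGF2R being added (limma adjusted p = 0.0344), and over all genes 3400 were higher and 1448 lower.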
